A study of Canis lupus familiaris with 16 samples.

Results

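The genes described here form the machinery of macroautophagy, the process by which a cell wraps part of its own cytoplasm in a double membrane and delivers it to lysosomes. They were chosen by name, as 40 gene symbols of the autophagosome pathway, and 39 of them were found among the 39543 gene symbols of the count tables. The remaining one, VMP1, was not analysed here. All 39 had enough counts to be tested. They were followed in 4 canine hepatocellular carcinoma (HCC) cell lines. The lines are KU-cHCC-001 and KU-cHCC-002, with KU-cHCC-004 and KU-cHCC-005, called 001, 002, 004 and 005 from here on. Each line was grown in Advanced DMEM with serum and harvested after 24 h with sorafenib at 30 µM, with its vehicle dimethyl sulfoxide (DMSO), with toceranib at 15 µM, or with the vehicle of toceranib, a phosphate-buffered saline (DPBS). Both drugs inhibit receptor tyrosine kinases, and sorafenib also inhibits RAF kinases. There was 1 library per line and treatment, 16 in all, so the replicates of a treatment were 4 tumour lines, and the error of a line's own response is not known.

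Autophagy starts when the ULK kinase complex is released from inhibition by mTORC1 and activates a lipid kinase complex built on BECN1 and PIK3C3. The lipid it makes recruits WIPI proteins and the ATG2 lipid carriers to the growing membrane. An enzyme chain like that of ubiquitin, with ATG7, ATG3, ATG10 and the ATG12-ATG5-ATG16L1 complex, then couples proteins of the ATG8 family (LC3 and GABARAP) to the membrane, where receptors such as SQSTM1 (p62) tie cargo to them. The process is studied in liver cancer because kinase inhibitors can alter it. The data here are transcript levels, which do not measure autophagic flux.

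Total counts ran from 17055803 to 19917958 per library with DMSO, 19667162 to 20312123 with sorafenib, 12008366 to 21943572 with toceranib and 16349457 to 17959057 with DPBS. The 39 genes together took 0.265% to 0.375% of them. Levels are given as counts relative to library size (CPM) scaled by the TMM method, in the order 001, 002, 004 and 005 wherever 4 values stand together. None of 9 hepatocyte markers reached 5 CPM in any DMSO library, with albumin (ALB) at 0.0521 to 0.0602 CPM. All 6 bile duct and progenitor markers reached it in at least 1 DMSO library, but SOX9 and CLDN4 stood at 1.77 and 1.67 CPM in that of line 001. The libraries labelled DPBS did not behave as 4 lines. The pair labelled 002 and 005 and the pair labelled 001 and 004 differed by 2.19 and 2.28 times the variance of counting noise, and the next closest of all pairs of libraries by 9.15 times. L1CAM, a cell adhesion gene, stood at 1125 CPM in the DMSO library of line 001 and at 1.5 CPM in the DPBS library of that label. The fibroblast collagen COL3A1 had no count in any DMSO or sorafenib library, but stood at 72.5 and 80.4 CPM in the DPBS libraries labelled 002 and 005, and at 6.53 and 51.6 CPM in the toceranib libraries of 004 and 005. Each drug was therefore compared first with DMSO of the same line, in 12 libraries without DPBS. For toceranib that comparison also holds the difference between the vehicles. Since nothing states how many cultures stood behind a library, p-values measure only the spread between these libraries, which may in part be technical.

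With sorafenib 6 of the 39 genes rose and 2 fell, and with toceranib none passed the threshold. With sorafenib, transcripts of WIPI1, which reads the lipid signal on the forming membrane, of the ATG8 protease ATG4C, of GABARAPL1, of the cargo receptor TAX1BP1 and of ATG12 and ATG16L1, parts of the conjugation complex, rose, and those of the lipid carrier ATG2A and of MAP1LC3B fell. WIPI1 rose most, from 7.64 ± 3.95 to 34.9 ± 12.8 CPM (SD, n = 4), and its level with toceranib was 7.31 ± 2.57 CPM. The test was edgeR's quasi-likelihood test with the line as a block, and a gene passed at a Benjamini-Hochberg adjusted p under 0.05 over all 14938 genes tested. Log2 fold changes are given as estimate ± standard error. With sorafenib 19.6% of all genes passed (9.59% higher and 10.1% lower), so 8 of 39 autophagy genes is close to the share of all genes. The median log2 fold change of the 39 genes was -0.041, against -0.024 for all genes tested. A gene that rose and one that fell stood side by side in the membrane group (WIPI1 and ATG2A) and in the ATG8 family (GABARAPL1 and MAP1LC3B). The line mattered to these calls: in a fit without it as a block, WIPI1 alone passed. In these bulk cultures fewer cells of a kind and less RNA per cell cannot be told apart. Of the 39 genes 17 overlap another annotated gene, among them ATG4C, ATG16L1, PIK3C3, ATG4B, GABARAPL2 and TECPR1, and since the strand setting of the counting is not given, reads of such neighbours may be included in their values.

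**Figure D1:**
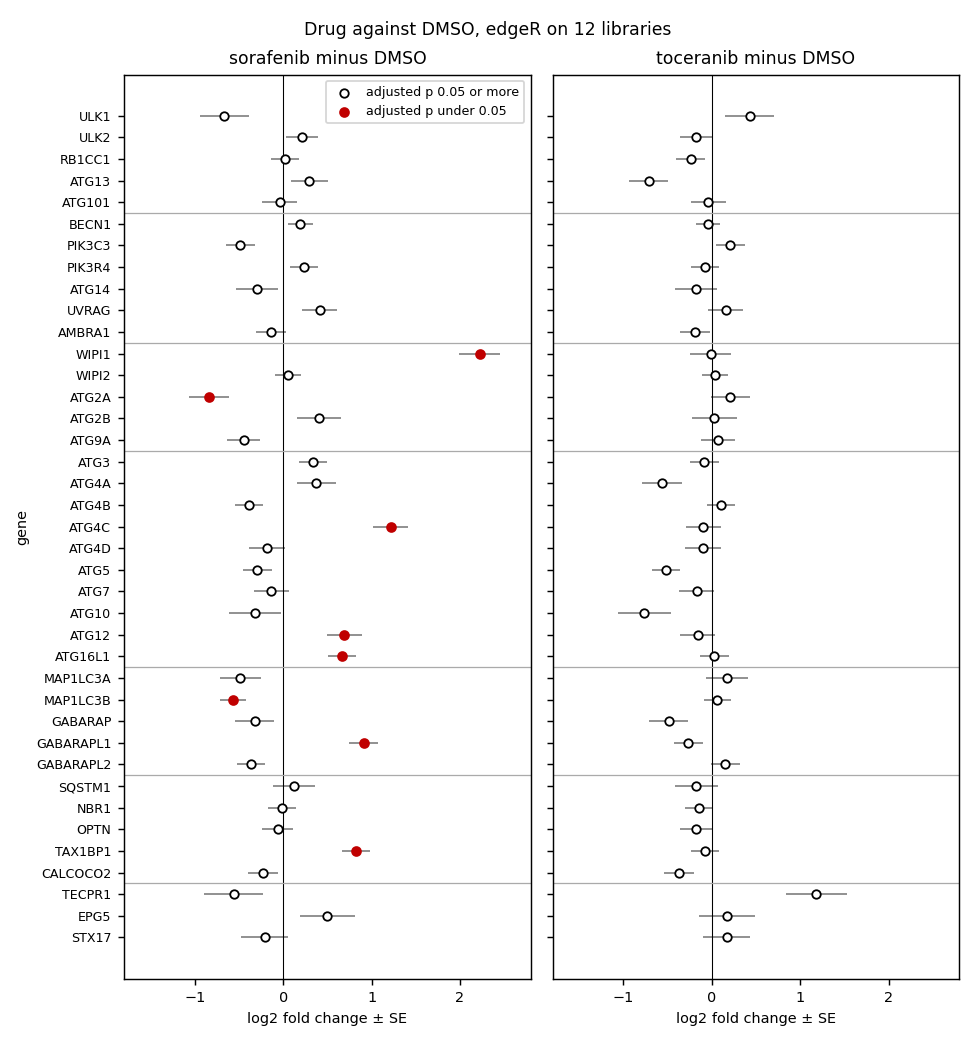
Log2 fold changes (points) with their standard errors (bars) of the 39 autophagy genes for sorafenib against DMSO (left) and toceranib against DMSO (right), from 12 libraries with the line as a block; filled points passed an adjusted p of 0.05. With sorafenib 6 genes lie to the right and 2 to the left as filled points, WIPI1 farthest at 2.22, and with toceranib no point is filled.

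None of the 5 genes of the initiation complex passed with sorafenib. ULK1, the kinase that starts the process, stood at 41.4, 82.3, 125 and 68.1 CPM with DMSO against 44.0, 45.8, 52.7 and 42.4 CPM with sorafenib. The sorafenib libraries were thus nearly equal to each other, and the low DMSO value of line 001 was just below them. The difference was -0.66 ± 0.28 (edgeR adjusted p = 0.114), with per-line ratios of 0.086 in line 001 and -1.24 to -0.68 in the others. Without line 001 it passed (edgeR adjusted p = 0.00676), and it also passed in a fit of the 8 DMSO and sorafenib libraries alone (0.0261). In the other alternatives, DESeq2 among them, ULK1 did not pass against DMSO. ATG13, the adaptor that carries ULK1, stood at 75.9, 108, 118 and 117 CPM with DMSO against 84.3, 159, 134 and 148 CPM with sorafenib, higher in 4 of 4 lines but short of the threshold (0.30 ± 0.21, edgeR adjusted p = 0.353). ULK2, the scaffold RB1CC1 (FIP200) and ATG101, which stabilises ATG13, had log2 fold changes of 0.21, 0.020 and -0.041.

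With toceranib, ULK1 stood at 40.6, 139, 117 and 131 CPM and ATG13 at 72.0, 74.7, 54.7 and 48.8 CPM. Line 001 stood apart from the other lines for ULK1, at the level of its DMSO library. The toceranib library of line 001 also held the leukocyte marker CD74 at 319 CPM, against at most 5.23 CPM in any other library. The endothelial marker PECAM1 stood at 13.2 CPM in it, against at most 0.259 CPM elsewhere. The other markers of these lists were not raised with them. PTPRC, LAPTM5, CD3E and TIE1 had no count there, and CD14 stood at 12.2 CPM, below the other toceranib libraries. CDH5, CLDN5 and VWF stood at 0.0419, 0.545 and 2.77 CPM, VWF being at 2.90 CPM in the sorafenib library of that line. The part of CD74 and PECAM1 in the values of line 001 with toceranib was not tested. For ATG13 every toceranib library lay below every DMSO library, by -0.72 ± 0.22 on the log2 scale (edgeR adjusted p = 0.0639). The DPBS libraries had 108, 132, 117 and 123 CPM of ULK1 and 82.8, 48.8, 86.0 and 50.5 CPM of ATG13 in the order of their labels. Of the toceranib libraries those of 002, 004 and 005 were close to these DPBS levels for ULK1, and toceranib minus DPBS gave -0.17 ± 0.34 for ULK1 and -0.10 ± 0.25 for ATG13 (edgeR adjusted p = 0.932 and 0.954).

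The lipid kinase complex had no gene past the threshold with either drug. PIK3C3 (VPS34), its catalytic subunit, came nearest with sorafenib. It stood at 33.6, 23.6, 36.2 and 32.6 CPM with DMSO, 28.2, 17.8, 23.3 and 21.8 CPM with sorafenib and 35.6, 33.4, 36.9 and 37.6 CPM with toceranib. It was lower with sorafenib in 4 of 4 lines (-0.48 ± 0.16, edgeR adjusted p = 0.0583), and every sorafenib library lay below every toceranib library. It passed without line 001 (edgeR adjusted p = 0.0352), in the 8 DMSO and sorafenib libraries (0.0219) and with DESeq2 (0.0324). BECN1, which holds the complex together, PIK3R4 (VPS15), the autophagy-specific ATG14, UVRAG, which takes the place of ATG14 in a second complex, and the regulator AMBRA1 had log2 fold changes of 0.19, 0.23, -0.29, 0.41 and -0.14 with sorafenib. With toceranib the 6 genes ranged from -0.19 (AMBRA1) to 0.21 (PIK3C3).

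Among the genes of membrane supply, WIPI1 rose and ATG2A fell with sorafenib. WIPI1 stood at 4.17, 4.88, 12.7 and 8.79 CPM with DMSO, at 28.5, 22.01, 37.5 and 51.6 CPM with sorafenib and at 6.08, 4.47, 8.39 and 10.3 CPM with toceranib. The lowest sorafenib library stood above the highest DMSO library, whereas toceranib and DMSO overlapped. The difference was 2.22 ± 0.23 (edgeR adjusted p = 3.48e-04), and the per-line ratios ran from 1.52 in line 004 to 2.63 in line 001. The call held in all 11 alternatives to this comparison, including each left-out line. Its relative WIPI2, which recruits ATG16L1, ranged over 86.6 to 157 CPM with DMSO against 111 to 182 CPM with sorafenib (0.054 ± 0.15, edgeR adjusted p = 0.829), and the groups overlapped.

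ATG2A, which moves lipids from the endoplasmic reticulum into the growing membrane, stood at 25.02, 57.6, 59.6 and 54.0 CPM with DMSO against 18.0, 30.7, 24.3 and 35.2 CPM with sorafenib. It was lower in 4 of 4 lines, while the groups overlapped through the low DMSO value of line 001 (-0.84 ± 0.22, edgeR adjusted p = 0.0238). The call ended without line 002 (edgeR adjusted p = 0.0515), without line 004 (0.164), without line 005 (0.0879) and in all 16 libraries (0.107). Its paralogue ATG2B had 0.40 ± 0.25 (edgeR adjusted p = 0.282), higher in 4 of 4 lines. ATG9A, the scramblase of the vesicles that seed the membrane, had -0.44 ± 0.19 (edgeR adjusted p = 0.118), lower in 4 of 4 lines. With toceranib ATG2A stood at 28.9, 104, 49.2 and 53.8 CPM, highest in line 002, and the log2 fold changes of the 5 genes of this group lay between -0.014 (WIPI1) and 0.21 (ATG2A).

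**Figure D2:**
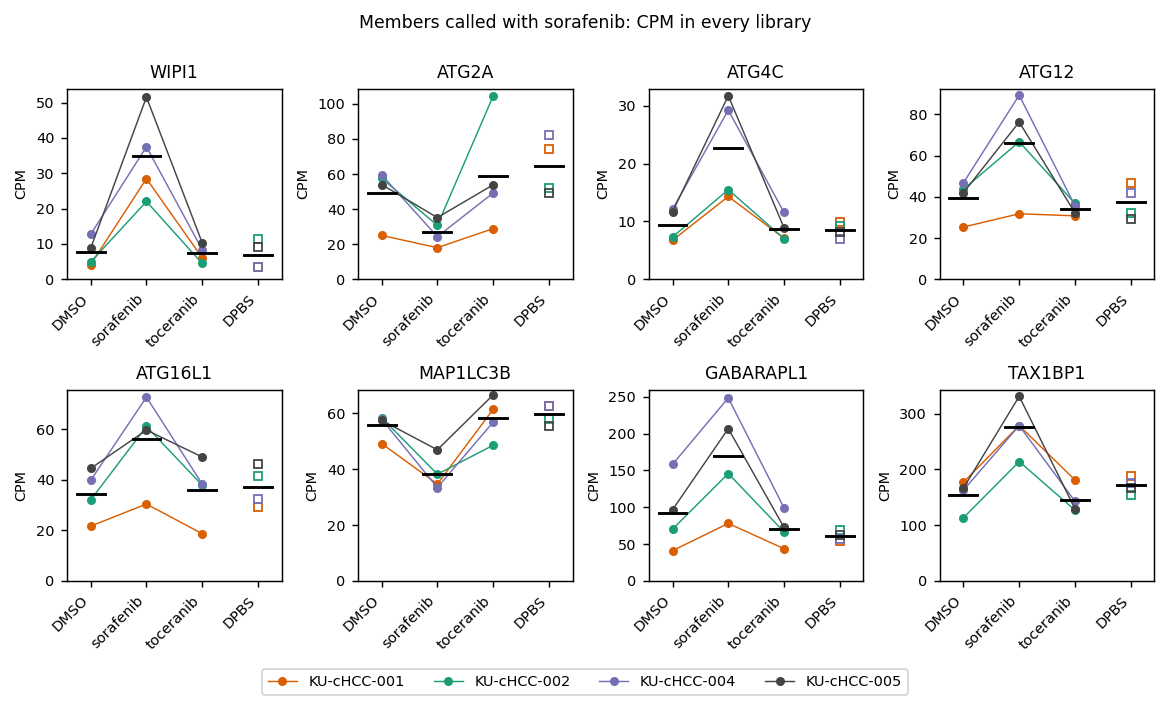
CPM in every library (points, coloured by the labelled line, joined across DMSO, sorafenib and toceranib of one line) of the 8 genes that passed with sorafenib; black bars are means of 4 libraries, and open squares are the DPBS libraries, which are not joined because they go against their line labels. In each line the sorafenib point lies above the DMSO point for WIPI1, ATG4C, ATG12, ATG16L1, GABARAPL1 and TAX1BP1, and below it for ATG2A and MAP1LC3B.

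Of 10 conjugation genes, ATG4C, ATG12 and ATG16L1 rose with sorafenib and none fell. ATG4C, one of a family of proteases that trim ATG8 proteins before coupling and release them afterwards, stood at 6.72, 7.29, 12.1 and 11.7 CPM with DMSO against 14.3, 15.5, 29.2 and 31.7 CPM with sorafenib. The groups did not overlap, and the ratio was similar in the lines, from 1.04 to 1.41 on the log2 scale (1.21 ± 0.20, edgeR adjusted p = 0.00323). With toceranib it stood at 7.08, 7.03, 11.5 and 8.89 CPM, within the DMSO range. The sorafenib call held without each line in turn. The other proteases had 0.38 ± 0.22 (ATG4A), -0.39 ± 0.15 (ATG4B) and -0.18 ± 0.20 (ATG4D), with edgeR adjusted p = 0.248, 0.100 and 0.560. ATG4B stood at 78.7, 109, 91.9 and 85.3 CPM with DMSO against 78.0, 71.1, 63.5 and 68.4 CPM with sorafenib, so that every sorafenib library lay below every DMSO library, by a small step in line 001, and with toceranib it stood at 90.7, 88.5, 103.5 and 108 CPM. ATG4A stood at 6.83, 12.8, 11.1 and 21.2 CPM with DMSO, 8.03, 13.6, 16.1 and 34.5 CPM with sorafenib and 5.74, 5.48, 9.37 and 14.2 CPM with toceranib, with line 005 highest in each.

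ATG12, the ubiquitin-like protein that is joined to ATG5, stood at 25.3, 43.6, 46.8 and 42.0 CPM with DMSO against 31.8, 66.7, 89.3 and 76.3 CPM with sorafenib. It was higher in 4 of 4 lines, least in line 001 at a ratio of 0.32 (0.69 ± 0.20, edgeR adjusted p = 0.0333). ATG16L1, which places the complex on the membrane, stood at 21.7, 32.0, 39.8 and 44.5 CPM and 30.4, 61.1, 72.7 and 59.6 CPM (0.66 ± 0.16, edgeR adjusted p = 0.0169), again higher in 4 of 4 lines and lowest in line 001 in both groups. With toceranib ATG12 stood at 30.8, 36.8, 35.7 and 32.3 CPM and ATG16L1 at 18.7, 37.9, 38.3 and 49.0 CPM, and both overlapped DMSO. Both calls ended without line 002 (edgeR adjusted p = 0.123 and 0.0992), without line 004 (0.174 and 0.123) and without line 005 (0.142 and 0.0632), and that of ATG12 in all 16 libraries (0.0832). ATG5, their partner, stood at 81.1, 84.0, 85.1 and 87.5 CPM with DMSO, 59.5, 80.1, 70.3 and 69.4 CPM with sorafenib and 63.0, 51.0, 73.2 and 50.03 CPM with toceranib. Every ATG5 value with either drug lay below every DMSO value, and neither difference passed (-0.29 ± 0.16 and -0.52 ± 0.16, edgeR adjusted p = 0.221 and 0.0697). The enzymes ATG3, ATG7 and ATG10 had 0.34, -0.14 and -0.32 with sorafenib and -0.088, -0.17 and -0.77 with toceranib.

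The ATG8 family split with sorafenib, GABARAPL1 rising and MAP1LC3B falling. These are the proteins coupled to the autophagosome membrane, and the lipid-bound form of LC3B is the usual protein marker of autophagosomes. GABARAPL1 stood at 41.1, 70.2, 158 and 96.6 CPM with DMSO, 78.1, 146, 248 and 207 CPM with sorafenib and 43.8, 66.6, 99.2 and 72.6 CPM with toceranib. The lines differed in level, lowest in line 001 and highest in line 004 in each of these treatments, so the groups overlapped, and within each line sorafenib was higher (0.91 ± 0.16, edgeR adjusted p = 0.00487, per-line ratios 0.65 to 1.09). The call held without each line in turn and ended only where the line was not a block (edgeR adjusted p = 0.309).

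MAP1LC3B, which encodes LC3B, stood at 49.2, 58.4, 57.9 and 57.5 CPM with DMSO, 34.7, 38.2, 33.4 and 46.9 CPM with sorafenib and 61.4, 48.5, 56.8 and 66.5 CPM with toceranib. Every sorafenib library lay below every library of the other treatments, DPBS included at 62.7, 58.0, 62.6 and 55.3 CPM. Against DMSO it changed by -0.57 ± 0.15 (edgeR adjusted p = 0.0248), and the call ended without line 002 (edgeR adjusted p = 0.0890), line 004 (0.174) or line 005 (0.0934) and with no filter on low counts (0.0615). The other 3 ATG8 genes did not pass with sorafenib. MAP1LC3A stood at 21.0, 86.0, 62.6 and 45.9 CPM with DMSO, 21.2, 57.2, 31.8 and 40.2 CPM with sorafenib and 46.7, 61.1, 52.1 and 57.2 CPM with toceranib, its range across lines being widest with DMSO (-0.48 ± 0.24, edgeR adjusted p = 0.173). GABARAPL2 stood at 37.7, 56.9, 73.3 and 64.1 CPM with DMSO, 33.8, 39.2, 48.5 and 61.1 CPM with sorafenib and 56.6, 48.8, 72.3 and 77.3 CPM with toceranib, lower with sorafenib than with DMSO in 4 of 4 lines (-0.36 ± 0.16, edgeR adjusted p = 0.135).

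GABARAP stood at 203, 356, 357 and 327 CPM with DMSO, 152, 271, 255 and 337 CPM with sorafenib and 223, 152, 259 and 229 CPM with toceranib. Against DMSO it had -0.32 ± 0.22 with sorafenib and -0.49 ± 0.22 with toceranib (edgeR adjusted p = 0.327 and 0.178). Its DPBS libraries, at 199, 191, 185 and 182 CPM, lay below every DMSO library. As a share of the counts of the 5 genes in a library, GABARAPL1 took 15.4% ± 5.16 (SD, n = 4) of them under DMSO, against 30.2% ± 7.05 with sorafenib. Toceranib and DPBS gave 15.2% ± 3.75 and 14.6% ± 1.32. The lowest sorafenib share, 24.4%, lay above the highest DMSO share, 22.3%. Reads scale with transcript length, so these shares compare a gene between libraries and not the 5 genes with each other.

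**Figure D3:**
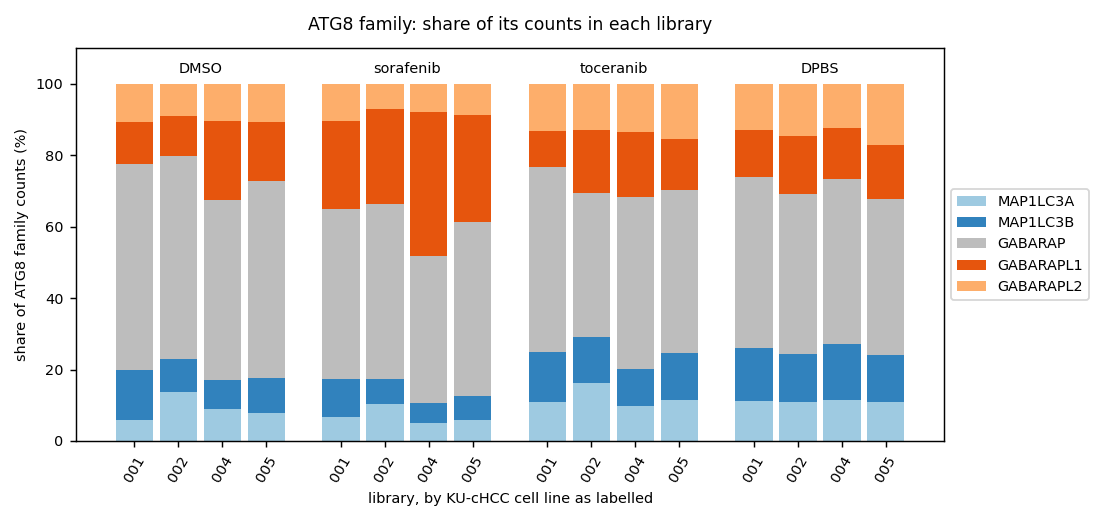
Share of the summed counts of the 5 ATG8 family genes (%, bars of 1 library each, stacked by gene) in the 16 libraries, grouped by treatment and ordered by labelled line. The GABARAPL1 segment takes 24.4% to 40.3% with sorafenib and 11.2% to 22.3% with DMSO.

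Of 5 cargo receptors TAX1BP1 alone passed with sorafenib. TAX1BP1, which binds ubiquitinated cargo and ATG8 proteins, stood at 177, 113, 163 and 167 CPM with DMSO, 279, 214, 279 and 331 CPM with sorafenib and 181, 127, 143 and 129.6 CPM with toceranib. Every sorafenib library lay above every DMSO, toceranib and DPBS library, the last at 189, 154, 175 and 167 CPM. The difference was 0.82 ± 0.16 (edgeR adjusted p = 0.00639), with per-line ratios of 0.65 to 0.99. Without line 004 the call ended narrowly (edgeR adjusted p = 0.0560), with a log2 fold change of 0.85.

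SQSTM1 (p62), both receptor and substrate of autophagy, stood at 257, 636, 908 and 523 CPM with DMSO, 415, 683, 725 and 611 CPM with sorafenib and 477, 468, 509.8 and 428 CPM with toceranib. Its DMSO libraries spanned the widest range, and with either drug line 001 lay above and line 004 below its own DMSO value (0.12 ± 0.24 and -0.18 ± 0.24, edgeR adjusted p = 0.760 and 0.672). OPTN, a receptor for mitochondria and bacteria, stood at 71.6, 209, 281 and 202 CPM with DMSO, 104, 189.8, 203 and 194 CPM with sorafenib and 98.8, 174, 202 and 155 CPM with toceranib, with line 001 again above and line 004 below its DMSO value. NBR1, a receptor that works with SQSTM1, stood at 103.4, 93.0, 166 and 109.9 CPM with DMSO, 90.2, 111, 168 and 106 CPM with sorafenib and 101, 103.1, 118 and 94.1 CPM with toceranib, and these groups overlapped. CALCOCO2 (NDP52) stood at 158, 138, 301 and 168 CPM with DMSO, 142, 141, 203 and 154 CPM with sorafenib and 156, 115, 156 and 141 CPM with toceranib. Its highest value was that of line 004 with DMSO. The log2 fold changes of OPTN, NBR1 and CALCOCO2 were -0.063, -0.013 and -0.23 with sorafenib and -0.18, -0.15 and -0.37 with toceranib.

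Of the genes that act in the joining of autophagosomes with lysosomes, none passed against DMSO with either drug. TECPR1, a protein of the autophagosome and lysosome membrane, stood at 24.6, 15.4, 23.5 and 13.8 CPM with DMSO, 18.8, 12.7, 12.5 and 9.05 CPM with sorafenib and 22.9, 56.1, 38.2 and 53.2 CPM with toceranib. It was higher with toceranib in all lines except line 001, and the overall difference missed the threshold (1.18 ± 0.34, edgeR adjusted p = 0.0582). It passed without line 001 (edgeR adjusted p = 0.00437). The DPBS libraries stood at 29.8, 52.6, 33.9 and 46.7 CPM, all above every DMSO library, and toceranib minus DPBS was 0.065 ± 0.31 (edgeR adjusted p = 0.978). The tethering factor EPG5 had 0.50 ± 0.31 with sorafenib and 0.17 ± 0.32 with toceranib, and the SNARE protein STX17 had -0.21 ± 0.26 and 0.17 ± 0.26 (edgeR adjusted p = 0.282, 0.770, 0.610 and 0.715).

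Toceranib against DMSO thus gave 0 of 39 autophagy genes at an edgeR adjusted p under 0.05, where 7.46% of all genes passed (4.31% higher and 3.15% lower). At an unadjusted p under 0.05 there were 6 of the 39, against 4120 of all 14938 genes tested. These were ATG13, ATG5, ATG10, ATG4A and GABARAP, lower, and TECPR1, higher. DESeq2 called 3, which were ATG13, ATG5 and TECPR1 (DESeq2 adjusted p = 0.0276, 0.0383 and 0.00877). Without line 001 edgeR called ATG13, GABARAP and TECPR1 (adjusted p = 0.00678, 0.0386 and 0.00437). The shares of all genes that passed with DESeq2 or without line 001 are not given here, so these counts cannot be set against them. DPBS minus DMSO gave values of the same sign and similar size for ATG13, GABARAP and TECPR1, -0.64 ± 0.25, -0.72 ± 0.24 and 1.08 ± 0.31 (edgeR adjusted p = 0.176, 0.121 and 0.0888). Without line 001 DPBS minus DMSO passed for the same 3 genes (edgeR adjusted p = 0.0398, 0.0198 and 0.0141). The DMSO libraries are shared by both comparisons. In toceranib against DMSO a change by the drug and the change of vehicle cannot be told apart.

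Toceranib against its own vehicle DPBS, in all 16 libraries without a line block, gave 0 of 39 genes at an edgeR adjusted p under 0.05, as it gave 0% of all 15515 genes tested. The error of this fit holds the differences between lines. Its common dispersion was 0.301, against 0.0807 in the 12 libraries with the block. Genes that did not pass may thus still differ between toceranib and DPBS. A single autophagy gene, RB1CC1, had an unadjusted p under 0.05, as had 1374 of all 15515 genes. RB1CC1 was lower in every toceranib library than in any DPBS library (53.8, 66.3, 71.7 and 68.7 CPM against 113, 94.4, 99.9 and 95.9 CPM, -0.63 ± 0.19, edgeR adjusted p = 0.404). DESeq2 called 0 of 39 as well. DPBS against DMSO gave 0 of 39 with edgeR and 1 with DESeq2, TECPR1 (adjusted p = 0.0266), where 1.7% of all genes passed with edgeR (0.986% higher and 0.709% lower). At an unadjusted edgeR p under 0.05 there were 6 of the 39, against 3016 of all 15515 genes. These tests count 4 DPBS libraries that formed close pairs, and the COL3A1 values above move with 1 of these pairs. Of 8 mesenchymal markers the summed level ran from 1850 to 13001 CPM with DMSO, 2425 to 9638 CPM with sorafenib, 1895 to 8913 CPM with toceranib and 1989 to 3370 CPM with DPBS, with COL3A1 and LUM at 0 in all DMSO and sorafenib libraries. VIM and FN1 made up most of each sum. COL1A1, COL1A2, ACTA2, LUM and DCN were raised with COL3A1 in the DPBS libraries labelled 002 and 005. COL1A1 stood there at 148 and 175 CPM, against 0.375 and 0.0591 CPM in those labelled 001 and 004. Their part in these results was not tested.

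**Figure D4:**
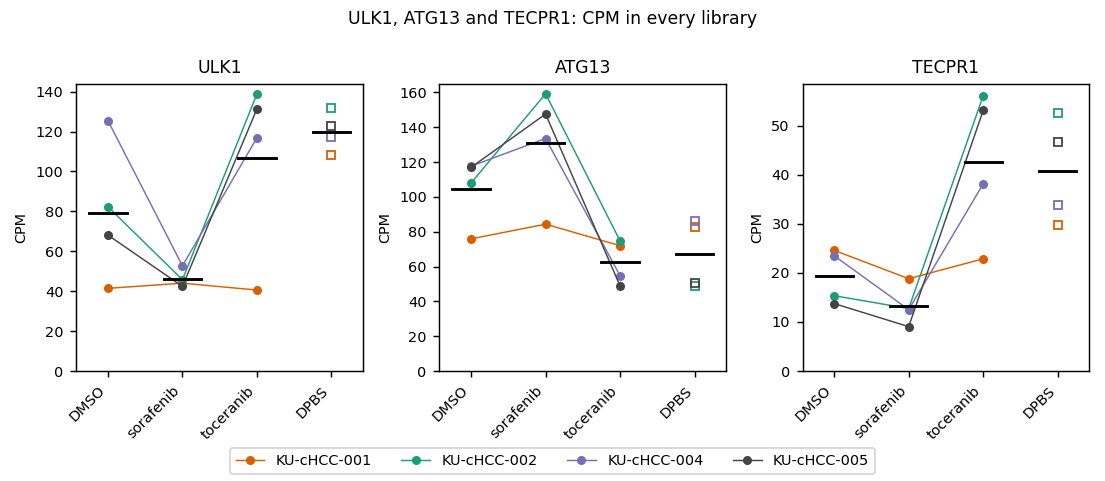
CPM in every library of ULK1, ATG13 and TECPR1 (points coloured by labelled line and joined across DMSO, sorafenib and toceranib; open squares are DPBS libraries; black bars are means of 4). For TECPR1 all DPBS points and the toceranib points of lines 002, 004 and 005 lie above every DMSO point, and for each gene line 001 changes least between DMSO and toceranib.

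The drugs were also compared directly, at the doses used, 30 µM and 15 µM, which differ, as do the vehicles. Of the 39 genes 8 were higher and 8 lower with sorafenib than with toceranib, where 38.4% of all genes passed (18.3% higher and 20.1% lower). WIPI1 (2.24 ± 0.23, edgeR adjusted p = 1.21e-04), ATG4C (1.31 ± 0.20, 7.90e-04), GABARAPL1 (1.18 ± 0.16, 5.58e-04) and TAX1BP1 (0.90 ± 0.16, 0.00162) were higher, and so were ATG13 (1.01), ATG4A (0.94), ATG12 (0.85) and ATG16L1 (0.63). Lower were TECPR1 (-1.74 ± 0.35, edgeR adjusted p = 0.00315), ULK1 (-1.09), ATG2A (-1.05), PIK3C3 (-0.69), MAP1LC3A (-0.66), MAP1LC3B (-0.63), GABARAPL2 (-0.51) and ATG4B (-0.49). In the ATG8 family 4 of 5 genes thus differed between the drugs, and MAP1LC3A, MAP1LC3B and GABARAPL2 lay below toceranib in 4 of 4 lines. The per-line ratio of WIPI1 between the drugs ran from 2.10 to 2.27.

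Of these 16 calls several ended when a line was left out, each with its sign kept. The log2 fold change of GABARAPL2 was then -0.56, -0.49 and -0.55 without 002, 004 and 005, that of ULK1 -0.89, -1.07 and -0.87, and that of MAP1LC3A ran from -0.47 without 001 to -0.81 without 002. Without line 001 the call of MAP1LC3A ended (edgeR adjusted p = 0.0717). Without line 002 those of ULK1 (0.0832), ATG4B (0.0518), GABARAPL2 (0.0534) and MAP1LC3A (0.0556) ended. Without line 004 those of ULK1 (0.0518), ATG12 (0.0726), ATG16L1 (0.0889), ATG4B (0.163), MAP1LC3A (0.136), MAP1LC3B (0.0634) and GABARAPL2 (0.118) ended. Without line 005 those of ULK1 (0.0893), PIK3C3 (0.0694), ATG4A (0.0793), ATG4B (0.176), ATG12 (0.0630), MAP1LC3A (0.131) and GABARAPL2 (0.0892) ended. Without the single toceranib library of line 005, which held COL3A1 counts, 13 calls held and those of ATG4B (0.101), MAP1LC3A (0.103) and GABARAPL2 (0.0652) ended.

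With each drug set against its own vehicle, a comparison added after seeing the data, 2 of the 39 genes passed in the 16 libraries with the line as labelled, WIPI1 (2.15 ± 0.58, edgeR adjusted p = 0.0426) and TAX1BP1 (1.08 ± 0.20, 0.00900). Of all genes 7.75% passed there. This fit takes line labels of the DPBS libraries that the data go against, and counts their close pairs as 4 libraries. ATG4C stood at 1.30 ± 0.37 (edgeR adjusted p = 0.0507) and GABARAPL1 at 0.81 ± 0.34 (0.166). The values of TECPR1, ATG13 and ULK1 were -0.61 ± 0.47, 0.42 ± 0.37 and -0.41 ± 0.40 (edgeR adjusted p = 0.452, 0.520 and 0.558). Without the line as a block TAX1BP1 alone passed (1.07 ± 0.25, edgeR adjusted p = 0.0318), where 4.05% of all genes did.

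The lines differed in their levels of these genes before any drug. With DMSO, 24 of the 39 genes were lower in line 001 than in each other line and 4 were higher. For 8 genes line 001 was the lowest line with DMSO, sorafenib and toceranib alike, namely ULK2, WIPI2, ATG2A, ATG12, ATG16L1, MAP1LC3A, GABARAPL1 and OPTN. OPTN stood at 71.6 CPM in line 001 with DMSO against 202 to 281 CPM in the other lines, and MAP1LC3A at 21.0 CPM against 45.9 to 86.0 CPM. In 23 of 39 genes the highest DMSO library had less than 2 times the level of the lowest, on CPM + 0.5. Line 004 held the highest DMSO value of 4 of 5 receptors, all but TAX1BP1. These differences between lines were not tested. The same counts were not made over all genes, so they are not shown to be particular to the autophagy genes. In line 001 the bile duct keratin KRT7 stood at 288 CPM with DMSO against 5474 to 7683 CPM in the other lines. KRT19, SOX9 and CLDN4 were also lower there, EPCAM slightly so (229 against 264 to 313 CPM). SPP1 of the same list was higher there (532 against 6.74 to 42.2 CPM). The summed mesenchymal markers were highest in line 001 at 13001 CPM, nearly all from VIM (6698 CPM) and FN1 (6260 CPM). COL1A1 stood at 41.1 CPM, COL1A2 at 1.67 CPM and ACTA2 at 0.104 CPM, with COL3A1, LUM and DCN at 0. The part of these markers in these levels was not tested.

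The response to sorafenib had the same direction in 4 of 4 lines for 24 of 39 genes, 13 higher and 11 lower, and that to toceranib for 5 genes, 1 higher and 4 lower. Of all 14938 genes tested 50.8% had 1 direction in 4 of 4 lines with sorafenib and 30.1% with toceranib, against 61.5% and 12.8% of the 39 genes. The median ratio to DMSO over the 39 genes was 0.22, -0.056, -0.16 and -0.058 in the 4 lines with sorafenib, and 0.070, -0.049, -0.25 and -0.14 with toceranib. The medians of all genes tested lay between -0.027 and 0.024. Cargo receptors with sorafenib had a median of 0.54 in line 001 and -0.32 in line 004. Genes of opposite sign in line 001 and in each other line with sorafenib were ULK1 (0.086 in line 001), ATG14 (0.28), MAP1LC3A (0.010), OPTN (0.54) and STX17 (0.30), all higher there alone. Whether lines respond differently could not be tested with 1 library each.

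**Figure D5:**
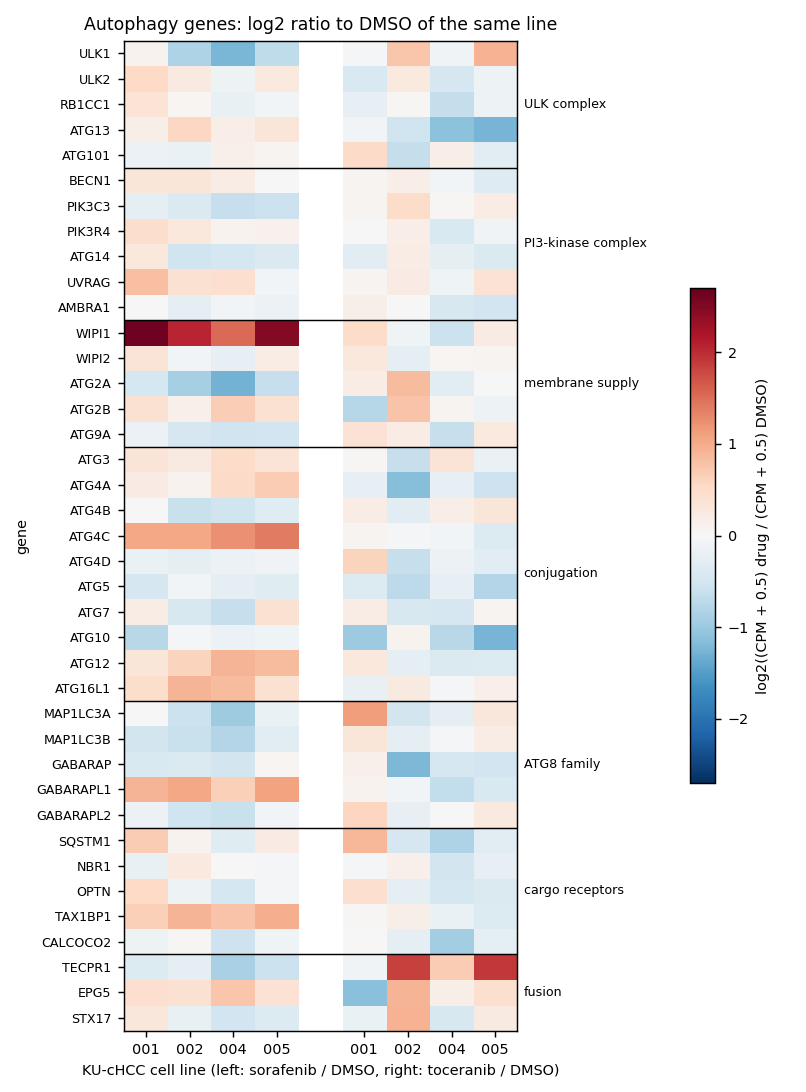
Log2 ratio of each drug library to the DMSO library of the same line (colour, on CPM + 0.5) for the 39 autophagy genes (rows, grouped by step of the pathway) and the lines 001, 002, 004 and 005 (columns), sorafenib left and toceranib right. The row of WIPI1 is the darkest with sorafenib (1.52 to 2.63), and TECPR1 with toceranib is near 0 in 001 and reaches 1.91 in 005.

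A second list held 76 further genes of autophagy and its upstream control, of which 75 were tested. With sorafenib 9 rose and 6 fell, or 20% against 19.6% of all genes, and with toceranib 4 were higher and 5 lower than with DMSO, or 12% against 7.46% (edgeR). The largest changes with sorafenib were those of TP53INP1 and TP53INP2, which promote autophagosome formation, of SESN2, a stress-induced inhibitor of mTORC1, and of MLST8, a subunit of mTOR complexes. TP53INP1 fell from 16.8 ± 13.98 to 4.57 ± 3.12 CPM (-1.82 ± 0.26, edgeR adjusted p = 0.00177), and TP53INP2 fell from 48.5 ± 22.6 to 18.9 ± 3.66 CPM. SESN2 rose from 46.5 ± 18.6 to 133 ± 62.1 CPM (1.52 ± 0.32, edgeR adjusted p = 0.00968), and MLST8 fell from 31.1 ± 12.1 to 12.6 ± 2.29 CPM. ATG9B, the paralogue of ATG9A, rose (1.21 ± 0.35, edgeR adjusted p = 0.0336), and CALCOCO1, a receptor for endoplasmic reticulum and Golgi, fell (-1.15 ± 0.27, 0.0150). With a line left out 4 (without 004) to 22 (without 001) of this list passed, and without the line block 3.

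By role, 4 of 30 upstream genes rose with sorafenib and 2 fell, as did 4 and 3 of 15 other core genes, 0 and 1 of 19 genes of selective autophagy, and 1 and 0 of 11 genes of fusion. The transcription factor TFE3, which drives lysosomal and autophagy genes, stood at 49.0 ± 1.81 CPM with DMSO, and with sorafenib at 44.3 ± 4.84 CPM (edgeR adjusted p = 0.472). It was lower with toceranib at 29.0 ± 7.90 CPM (-0.79 ± 0.16, 0.0237) and with DPBS at 28.0 ± 2.84 CPM (-0.81 ± 0.17, 0.0340), a call that ended with each close pair of DPBS libraries as 1 library, with no filter on low counts and without line 002, 004 or 005, when 0 of the list passed. Its relative MITF was lower with toceranib than with DMSO (-1.13 ± 0.29, 0.0411), and so was the apoptosis inhibitor BCL2L1, which binds BECN1 (-0.71 ± 0.17, 0.0339). ATG9B (1.73 ± 0.35, 0.0228), TP53INP1 (1.49 ± 0.25, 0.0157) and the membrane scramblase TMEM41B (0.81 ± 0.22, 0.0464) were higher. Against DPBS these 6 genes had log2 fold changes of -0.53 (BCL2L1) to 0.24 (ATG9B), and none passed. All 9 calls of this list with toceranib ended without lines 002, 004 or 005, or without the toceranib library of line 005, when 0 passed.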

How the data were processed

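Gene-level read counts were used as the authors deposited them, 1 table of whole-number counts per library. TopHat is the aligner in the submitters' processing notes. For its version, the counting tool, its strand setting and the genome build, the sources used here give nothing. Each table had 39954 entries, and 500 entries that shared 89 symbols were summed. Groups, lines, doses and vehicles follow the labels. The 39 autophagy symbols all matched RefSeq names for the dog. The autophagy genes and the second list were chosen with earlier results of these data known.

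Counts were tested with edgeR 4.0.16 in R 4.3.3 (TMM scaling, filterByExpr, robust quasi-likelihood test, Benjamini-Hochberg adjustment over all genes tested). The 12 libraries without DPBS were fitted with treatment and line, with 6 residual degrees of freedom and 14938 genes. The 16 libraries were fitted with treatment alone for comparisons with DPBS, with 12 residual degrees of freedom and 15515 genes. The line numbers pair libraries of the same cell line: deviations from the treatment means of same-line libraries correlated at 0.750 to 0.892 (DMSO and sorafenib), 0.555 to 0.794 (DMSO and toceranib) and 0.509 to 0.735 (sorafenib and toceranib), but at -0.449 to 0.288 for DMSO and DPBS. Printed CPM were scaled by TMM over 16 libraries, and ratios per line are log2 of CPM + 0.5. The procedure was tested on simulated data for sorafenib against DMSO, with 50 changed genes at each size of change. It called 10% of 1.5-fold, 56% of 2-fold and 100% of 4-fold and 8-fold changes, with 8 false calls among 14640 genes. The simulated dispersion lay below the common dispersion of 0.0807 fitted to the 12 libraries. A gene that did not pass may thus still have changed, by 2-fold or by more. Changes between 2-fold and 4-fold were not simulated, and TECPR1 with toceranib did not pass at an estimated 2.27-fold. The genes named are all 39, with the value in each library for those that passed in any comparison and for the ATG8 family and receptors, and up to 6 of the second list for each drug against DMSO. Alternatives were other scaling, no filter on low counts, DESeq2 1.42.0, fits with and without the line, other sets of libraries, a pseudocount of 2 CPM and leaving out lines. Promoter motifs were not analysed here. Gene lengths were not used, so levels are not compared between genes.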

Additional observations from a re-analysis of the deposited data

Results flagged for a closer look

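In each treatment the highest or lowest of the 4 libraries was set against the other 3 for each of the 39 genes. In 9 of 156 such sets the gap to the nearest library took more than 0.829 of the range. For 4 independent draws from 1 normal distribution chance gives about 1 in 20, or 7.8 of 156. The libraries are different lines, those with DPBS formed close pairs, and the sets share libraries. The number 7.8 is therefore only a rough guide. The library labelled 001 was the one that stood apart in 7 of the 9. In the DMSO group its values were low for WIPI2 (86.6 CPM, others 149.9 to 157 CPM), ATG2A (25.02 CPM, others 54.0 to 59.6 CPM), MAP1LC3B (49.2 CPM, others 57.5 to 58.4 CPM) and GABARAP (203 CPM, others 327 to 357 CPM). With sorafenib its OPTN value was low at 104 CPM, the others lying at 189.8 to 203 CPM. With toceranib its ULK1 value was low at 40.6 CPM, the others lying at 117 to 139 CPM. In the DPBS library of that label ATG14 was high at 14.9 CPM against 12.7 to 12.8 CPM. Line 002 had a high ATG2B value with toceranib, 53.6 CPM against 40.9 to 42.5 CPM. The DPBS library labelled 005 had a low MAP1LC3A value, 44.7 CPM against 46.0 to 46.1 CPM.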

How the results depend on the processing

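No autophagy gene that passed changed direction under any alternative. Of the 39 autophagy genes 8 passed for sorafenib against DMSO. Without the line block (no pairing) 1 passed, WIPI1, and in the 8 DMSO and sorafenib libraries 16; other scaling, DESeq2 and further alternatives gave 6 to 9, and leaving out a line 3 (without 004) to 12 (without 001). For sorafenib against toceranib 16 passed, 9 without the block, 9 (without 005) to 16 (without 001) with a line left out, and, with each drug set against its own vehicle, 2 with and 1 without the block. For toceranib against DMSO 0 passed, 1 with no filter on low counts (ATG13), 3 with DESeq2, and 0 to 3 with a line left out. Toceranib against DPBS gave 0 throughout. DPBS against DMSO gave 0, 1 with DESeq2 and 0 to 3 with a line label left out, a label that the DPBS libraries go against. Apart from the fits against own vehicles, the shares of all genes passing in these alternatives are not given here. These counts, like those of the second list below, therefore cannot be set against the share of all genes.

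Of the second list 15 passed for sorafenib against DMSO, 3 without the block, 28 in the 8 libraries, and 4 to 22 with a line left out. For sorafenib against toceranib 32 passed, 17 without the block, 18 to 38 with a line left out, and 7 with and 5 without the block against the own vehicles. For toceranib against DMSO 9 passed, 17 with DESeq2, 0 without the block, 3 in all 16 libraries, 2 in the 8 libraries, 0 to 20 with a line left out and 0 without the toceranib library of line 005. Toceranib against DPBS gave 0 and 1 with DESeq2. DPBS against DMSO gave 3, 0 with no filter on low counts, 7 with DESeq2, 5 with the replicate block, 0 with each close pair as 1 library, and 0 to 10 with a line label left out. Leaving out a line leaves fewer libraries; otherwise the cause of these changes was not tested. A pseudocount of 2 CPM moved no median per-line ratio of the 8 genes that passed with sorafenib beyond the spread between lines. With 1 library per line and treatment, changes in single lines have no error.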
